A study of Mus musculus with 4 samples.

Results

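The 8 genes described here are *Cd74*, *H2-Aa*, *H2-Ab1*, *H2-Eb1*, *Il1b*, *Tyrobp*, *Srgn* and *Bcl2a1b*, genes of immune cells and antigen presentation among the 32288 features counted in hindlimb cells of E14.5 mouse embryos. They were chosen by symbol because they led a small unnamed cluster of cells in earlier results of the same data, so their high level in a few barcodes is a description and carries no test. All 8 were detected. A total of 2648 of their UMIs (unique molecular identifiers, each standing for 1 captured RNA molecule) lay in 6873 kept barcodes, and 66.5% of these (exact 95% binomial interval 64.7 to 68.3%) sat in 14 barcodes, all of them from the tdT- sort. A single tdT- barcode held 37.0% of them. *H2-Ab1* was the exception, with 12.9% of its UMIs in those 14 barcodes and 220 UMIs in the large barcodes with the highest cartilage share.

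The cells came from 4 single-cell libraries, made from the tdT+ and the tdT- cells of 2 collections. All embryos carried a *Gli1*CreER allele, a *R26*LSL-tdTom allele and a *Tigre*TRE-p21 allele, and those of the *Pan-Cart-p21*MOE condition (p21 below) also carried *Col2a1-rtTA*, whose cartilage promoter drives p21, an inhibitor of the cell cycle, in the presence of doxycycline. Control embryos lacked *Col2a1-rtTA* and received the same drugs. Doxycycline was given to the pregnant females from E12.5 (1 mg/ml in water with 0.5% sucrose, and in food) and tamoxifen at E13.5 (120 µg/g by gavage), so tdTomato marks *Gli1*-expressing cells and their descendants. Red blood cells were lysed before the sort, and the methods name no step that selected leukocytes. Sex told the conditions apart within a library, since collection 1 joined male p21 with female control cells and collection 2 female p21 with male control cells. Condition was therefore read from *Xist* and Y-linked transcripts of each cell. The methods name pools of embryos with 1 female p21 embryo, so the p21 cells of collection 2 may come from 1 animal.

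Kept barcodes had at least 1000 UMIs, 500 genes and at most 10% mitochondrial UMIs. The tdT+ libraries gave 706 (collection 1) and 1483 (collection 2) kept barcodes and the tdT- libraries 772 and 3912, with 10655794 to 37523687 UMIs per library and a median per barcode of 1272 to 23054.5 UMIs. The tdT- library of collection 2 was the one with the low median. Between 6.25 and 12% of the barcodes of at least 10000 UMIs carried transcripts of both sexes, as pairs of cells in 1 droplet would, and 3 to 12 barcode sequences were shared between any 2 libraries, none of them among the 14 above. Intervals given for shares and levels cover counting error only.

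As background, MHC class II molecules display peptides to helper T cells on dendritic cells, macrophages and B cells. *H2-Aa* encodes the alpha chain and *H2-Ab1* the beta chain of the I-A molecule, *H2-Eb1* encodes the beta chain of I-E, and *Cd74* encodes the invariant chain that escorts new class II molecules and blocks their groove. *Il1b* encodes interleukin-1β, a cytokine of inflammation made chiefly by myeloid cells. *Tyrobp* encodes DAP12, a signalling adaptor for activating receptors of myeloid and natural killer cells, *Srgn* encodes serglycin, the proteoglycan core on which haematopoietic cells pack granule proteins, and *Bcl2a1b* encodes a relative of BCL2 that protects leukocytes from apoptosis. Macrophages and mast cells seed the limb before birth, and class II genes are usually switched on by the transactivator CIITA acting at an X box and a Y box upstream of each gene.

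Promoter stretches are shown for the 2 class II chains found in the RefSeq promoter table (GRCm38.p6), since both hold an X and a Y box, the pair of motifs through which class II genes are usually switched on. The table matched 5 of the 8 genes, and the promoters of *Cd74*, *H2-Ab1* and *Tyrobp* were not searched. Both stretches run 5′ to 3′ on the strand of the gene and end at the base before its start, chr17:34287824-34287973 on the minus strand for *H2-Aa* and chr17:34305717-34305866 on the plus strand for *H2-Eb1*, with the X box core GCAACT and the Y box CTGATTGG in capitals.
H2-Aa: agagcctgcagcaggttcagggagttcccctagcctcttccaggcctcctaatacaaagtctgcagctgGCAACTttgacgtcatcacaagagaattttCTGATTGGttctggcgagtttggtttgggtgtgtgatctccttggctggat
H2-Eb1: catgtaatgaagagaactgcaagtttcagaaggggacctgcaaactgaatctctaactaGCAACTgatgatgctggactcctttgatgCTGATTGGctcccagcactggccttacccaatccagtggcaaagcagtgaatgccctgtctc
The X box core began 30 bases before the Y box in *H2-Aa* and 29 bases before it in *H2-Eb1*. Among 32851 promoters of the table, read over 250 bases on both strands, 9.01% held GCAACT, 3.83% held CTGATTGG and 0.341% held both. Only *H2-Aa*, *H2-Eb1* and the class II gene *H2-Eb2* held the core 10 to 30 bases before the Y box on the gene strand, a window set after the spacings above had been seen. The letters of neither motif were found in the promoters of *Il1b*, *Srgn* and *Bcl2a1b*, and TTCCNGGAA, an interferon-type motif present in 0.913% of promoters, was in none of the 5.

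On GRCm38 (GENCODE M21) the class II chains lie together on chromosome 17, *H2-Ab1* at 34257689 to 34269419, *H2-Aa* at 34282744 to 34287823 and *H2-Eb1* at 34305867 to 34316674. *Il1b* is on chromosome 2 (129364570 to 129371139), *Tyrobp* on chromosome 7 (30413760 to 30417585), *Bcl2a1b* on chromosome 9 (89199209 to 89207827) and *Srgn* on chromosome 10 (62493833 to 62527451). All are protein-coding. An antisense gene overlaps *H2-Eb1* (*Gm20513*) and *Il1b* (*Il1bos*), a gene on the same strand (*Gm29094*) overlaps *Bcl2a1b*, and *Bcl2a1b* has near-identical copies, *Bcl2a1a* and *Bcl2a1d*, so its reads may be split between copies and its counts are uncertain.

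The first comparison asked which sort carried the genes. Levels are CPM, the UMIs of a gene per 1000000 UMIs of the kept barcodes of a library, and a change in such a sum does not tell fewer cells of a type from less RNA per cell. *Tyrobp* had 0 UMIs in both tdT+ libraries and 224 and 251 UMIs in the tdT- libraries of collections 1 and 2, or 21 and 6.69 CPM. *Il1b* had 0 and 1 UMI in tdT+ against 11 and 193 in tdT-. *Bcl2a1b* had 1 and 1 UMI in tdT+ against 35 and 201 in tdT-. These 3 genes were close to 0 in the sorted *Gli1* lineage.

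*Srgn* had 8 and 28 UMIs (0.436 and 0.987 CPM) in the tdT+ libraries and 35 and 433 UMIs (3.28 and 11.5 CPM) in the tdT- libraries. *Cd74* was at 0.818 and 0.846 CPM in tdT+ and at 1.60 and 9.86 CPM in tdT-, its high value lying in collection 2 alone. The same library stood out for the I-A and I-E chains. *H2-Aa* gave 1 and 10 UMIs in tdT+ and 0 and 177 UMIs in tdT-, and *H2-Eb1* gave 18 and 18 UMIs in tdT+ and 7 and 113 UMIs in tdT-. For both genes the tdT- library of collection 1 lay below or within the tdT+ range of CPM (0 for *H2-Aa*, 0.657 for *H2-Eb1*). *H2-Ab1* was the most even member, at 2.89 and 3.31 CPM in tdT+ and 5.63 and 6.64 CPM in tdT-.

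Few barcodes carried these transcripts. A UMI of any member was found in 638 of 6873 kept barcodes, 477 of them with exactly 1 such UMI, while 6235 barcodes (90.7%) had none. *H2-Ab1* was in 282 barcodes, *Srgn* in 150, *Tyrobp* in 99, *Cd74* in 72, *H2-Eb1* in 46, *Bcl2a1b* in 44, *H2-Aa* in 24 and *Il1b* in 21. By library the share with any member UMI was 9.21 and 7.62% in tdT+ and 11.9 and 9.41% in tdT-.

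To see whether the carriers were leukocytes, 12 pan-leukocyte genes that are not members were counted in every barcode: *Ptprc* (CD45), *Laptm5*, *Coro1a*, *Cd52*, *Cd53*, *Rac2*, *Lcp1*, *Fcer1g*, *Spi1* (the myeloid factor PU.1), *Ptpn6*, *Vav1* and *Ptpn18*. At least 3 of them were detected in 109 barcodes, 9 and 20 in tdT+ (1.27 and 1.35%) and 21 and 59 in tdT- (2.72%, exact 95% interval 1.69 to 4.13%, and 1.51%, 1.15 to 1.94%). The difference of the means, 0.802 percentage points, gave p = 0.333 by a two-sided exact permutation test, the smallest p that 2 against 2 libraries allow. The shares depend on the depth of the barcodes counted. Among barcodes of at least 3000 UMIs they were 1.45 and 1.81% in tdT+ and 3.83 and 4.24% in tdT-, with the same p. The mark of 3 genes was loose. The 109 barcodes had a median of 48149 UMIs against 3656 in the others, 60 of them had no member UMI, and their cartilage transcripts made up 1.56% of UMIs against 1.08% elsewhere. They held 69.3% of the member UMIs.

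Barcodes with at least 8 of the 12 genes, a bound set after the values had been seen, numbered 14 and are called high-marker barcodes here. They were 6 of 772 kept barcodes (0.777%, exact 95% interval 0.286 to 1.68%) in the tdT- library of collection 1 and 8 of 3912 (0.204%, 0.0883 to 0.403%) in that of collection 2. These shares depend on depth as well, since each of the 14 had at least 12641 UMIs. Kept barcodes of at least 10000 UMIs numbered 323 and 968 in those 2 libraries. No tdT+ barcode reached the bound, 0 of 706, which allows a share of up to 0.425%, and 0 of 1483, which allows up to 0.202%. A *tdt* UMI was found in none of the 14. The paper states that reads of the tdTomato and p21 transgenes fall mostly on WPRE, a sequence in both cassettes. The lack of *tdt* UMIs therefore cannot show that tdTomato was absent. WPRE had 0 to 382 UMIs in the 14 barcodes. They held 1.25% of all kept UMIs, but 92.2% of the *Il1b* UMIs, 86.2% of *H2-Aa*, 85.3% of *Bcl2a1b*, 81.1% of *Tyrobp*, 79.6% of *Cd74*, 66.7% of *Srgn* and 57.1% of *H2-Eb1*. All 12 barcodes with at least 10 member UMIs were among them, and the highest count outside them was 8. Only 6 barcodes had 5 to 7 of the pan-leukocyte genes, all in the tdT- library of collection 2, with 11 member UMIs together. A further tdT- barcode with 10 of the genes, 10 *Tyrobp* UMIs and 4 *Srgn* UMIs had failed the mitochondrial limit, at 10.1%.

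**Figure D1:**
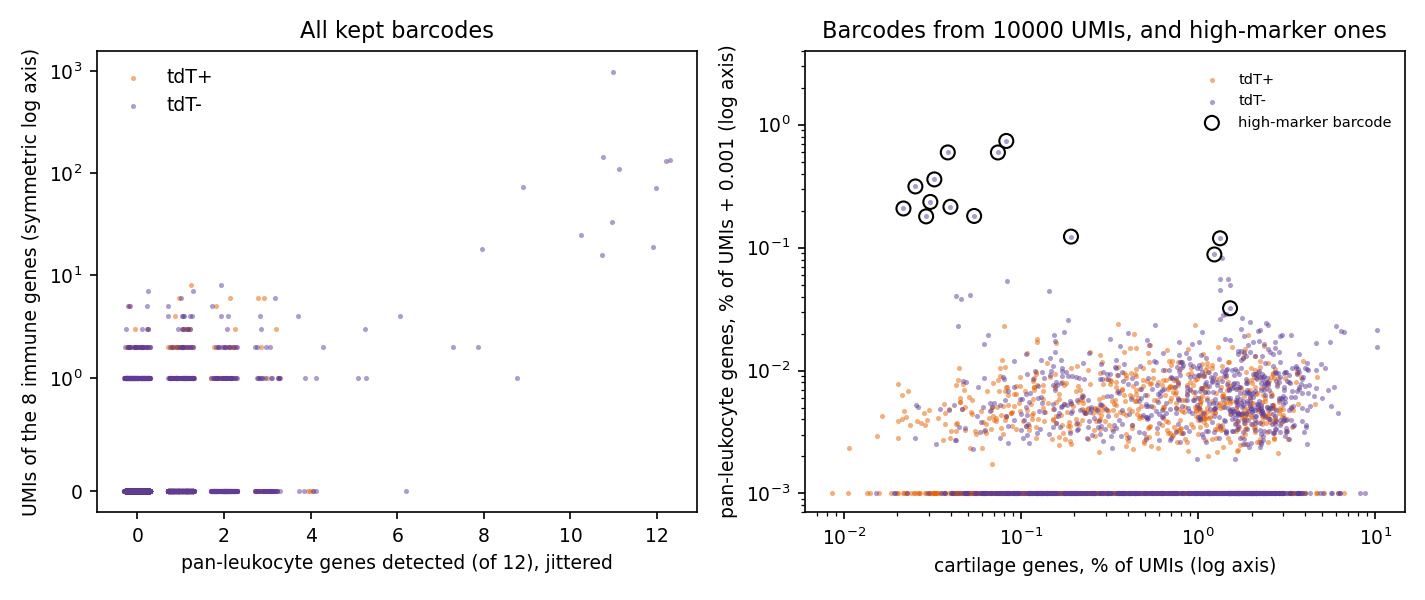
Left, UMIs of the 8 immune genes (symmetric log axis) against the number of the 12 pan-leukocyte genes detected (jittered) in all 6873 kept barcodes, tdT+ in orange and tdT- in purple. Right, the share of UMIs from pan-leukocyte genes (with 0.001 added, log axis) against the share from 12 cartilage genes (log axis) in barcodes of at least 10000 UMIs, with the 14 high-marker barcodes ringed. All barcodes with 10 or more immune gene UMIs are tdT- and lie at 8 genes or more on the left, and 10 of the 14 ringed points lie under 0.1% cartilage on the right.

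The high-marker barcodes differed from each other in which members they carried. They are lettered A to F in collection 1 and G to N in collection 2. Barcode G (19402 UMIs) stood apart, with 981 member UMIs, 312 of *Cd74*, 161 of *H2-Aa*, 53 of *H2-Ab1*, 88 of *H2-Eb1*, 165 of *Il1b*, 28 of *Tyrobp*, 63 of *Srgn* and 111 of *Bcl2a1b*. It was the only one of the 14 with more than 4 UMIs of any class II chain. In it lay 85.6% of all kept *H2-Aa* UMIs, 80.5% of *Il1b*, 73.2% of *Cd74*, 56.4% of *H2-Eb1* and 46.6% of *Bcl2a1b*, although it held 0.0517% of the UMIs of its library. It also had 88 UMIs of *Cd83*, which stabilises class II at the surface, 8 each of *H2-DMa* and *H2-DMb1*, whose product loads peptides, 66 of *Bcl2a1d* and 41 of *Bcl2a1a*. Only 1 of 13 macrophage genes and 2 of 11 dendritic cell genes were detected in it, and neither *Csf1r*, *Flt3*, *Itgax* nor *Ccr7* was. It is left unnamed. Its sex was called female from 4 UMIs, which places it in the p21 cells.

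*Tyrobp* was the member spread over most of the 14, present in 13. Barcode A had 85 UMIs of it, B had 67, J had 54, I had 43 and K had 36. Barcode B (71 member UMIs) had 12 of the 13 macrophage genes, with 169 UMIs of the complement gene *C1qb* and 30 of *Trem2*, a receptor that signals through DAP12. Barcode D (19 member UMIs, 5 of them *Il1b*) also had 12 of the 13, with 156 UMIs of *Mrc1*, the mannose receptor of tissue macrophages. Both were macrophage-like by that list and had no UMI of *H2-Aa*, *H2-Ab1* or *H2-Eb1*. The number of genes alone did not set them apart, since M had 11 of the 13, J had 10 and K had 9. UMIs of the list were 573 in B and 369 in D, against 18 in M, 168 in J and 105 in K.

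Barcodes I and J (135 and 133 member UMIs) shared *Tyrobp*, *Srgn*, *Bcl2a1b* and *Il1b*. Barcode I had 51 UMIs of *Srgn*, 29 of *Bcl2a1b* and 6 of *Il1b*, with 187 UMIs of the lysozyme gene *Lyz2*, and J had 52 of *Srgn*, 14 of *Bcl2a1b* and 10 of *Il1b*, with 40 of *Lyz2*. *Ccr2*, a chemokine receptor of monocytes, had 11 and 17 UMIs in I and J against 34 in all kept barcodes. Of 12 monocyte and neutrophil genes I had 3 and J had 4, and of the 13 macrophage genes they had 5 and 10. Barcode H (143 member UMIs) carried *Srgn* almost alone, with 136 UMIs. It was mast cell-like by the marker list, with 4 of 6 mast genes, 192 UMIs of the carboxypeptidase gene *Cpa3* and 308 UMIs of *Gzmb*, a granule protease bound by serglycin. *Tyrobp* had 2 UMIs and *Bcl2a1b* had 0 in it.

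Barcodes C, E and F had 33, 18 and 16 member UMIs, mostly *Tyrobp* (26, 12 and 12). Together with A they were also the ones with the most mesenchymal transcripts among those poor in cartilage transcripts (77 to 217 UMIs of 8 mesenchyme genes, against 1 to 6 in B, D, G, H, I and J). Barcode L (25 member UMIs) had 12 *Srgn* UMIs with 98 of *Prtn3* and 63 of *Mpo*, granule proteins of early granulocytes, and carried transcripts of both sexes. *Elane* and *Ctsg*, granule genes of the same list, had only 1 and 2 UMIs in it. *Prtn3* was common elsewhere, with 104 of its 898 kept UMIs in the high-marker barcodes. Barcodes M and N had 2 and 1 member UMIs.

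**Figure D2:**
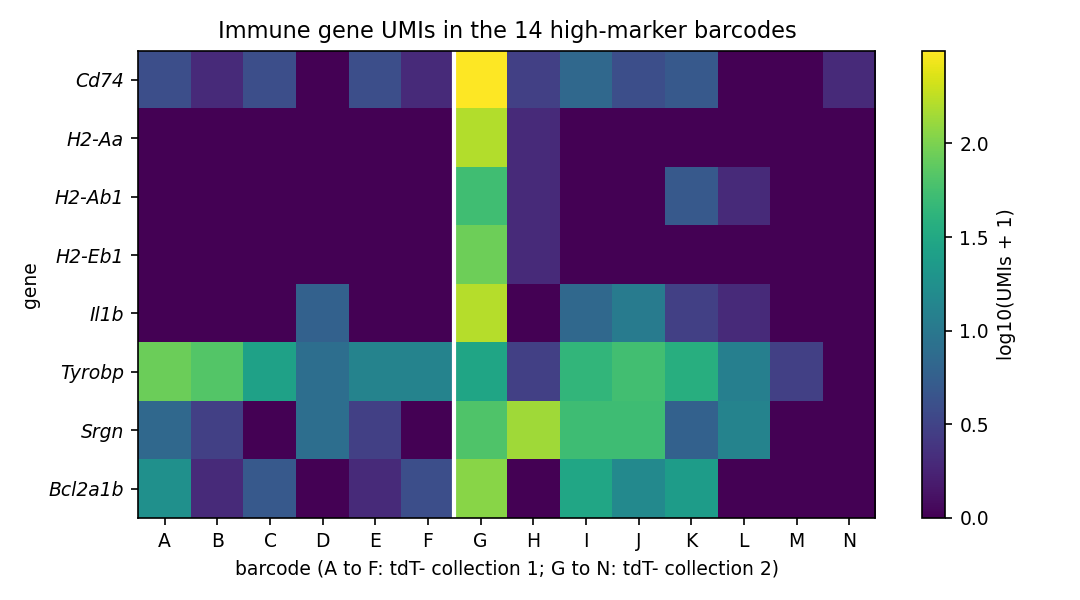
UMIs of the 8 immune genes (rows) in the 14 high-marker barcodes (columns), coloured by log10(UMIs + 1), with A to F from the tdT- library of collection 1 and G to N from that of collection 2. *Cd74*, the class II chains and *Il1b* are concentrated in barcode G, *Srgn* is highest in H, and *Tyrobp* is present in all but N.

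Co-detection with cartilage genes divided the high-marker barcodes. Cartilage was scored by 12 genes, among them *Col2a1*, *Acan*, *Sox9* and *Matn1*. In 10 of the 14 (A to J) these made up 0.0217 to 0.0825% of UMIs, 14 to 35 UMIs each, and these 10 held 1660 of the 1762 member UMIs in high-marker barcodes. Among the other barcodes of at least 10000 UMIs in the 2 tdT- libraries, cartilage genes made up 1.37 and 1.38% of all UMIs, and 7.89% of barcodes in collection 1 and 10.0% in collection 2 lay under 0.1%. All 14 still had UMIs of at least 7 of the 12 cartilage genes, but in A to J *Col2a1* gave 2 to 9 UMIs per barcode. Barcodes under 1000 UMIs (from 500) had cartilage shares of 0.765 and 0.882% in these libraries, above all of A to J.

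The other 4 barcodes (K to N) had 0.191 to 1.51% cartilage, 102 member UMIs in all and transcripts of both sexes. Barcode K had 424399 UMIs, 6423 of cartilage genes and 382 of WPRE, a sequence of the transgene cassettes, beside 36 *Tyrobp* and 23 *Bcl2a1b* UMIs. Barcodes of both sexes were 6 of the 14, or 42.9%, against 8.96% of 2633 other barcodes of at least 10000 UMIs. The mark finds only pairs of cells of different sex. Of A to J, A (11 female and 4 male UMIs) and F (24 and 2) carried it. Scrublet, a doublet caller, placed 1 of the 14 (D) in its top 5%.

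Outside the high-marker barcodes 886 member UMIs remained, of which 397 were *H2-Ab1*, 168 *Srgn*, 90 *Tyrobp*, 87 *Cd74*, 67 *H2-Eb1*, 35 *Bcl2a1b*, 26 *H2-Aa* and 16 *Il1b*. Barcodes with 5 or more of them numbered 17, and 9 of these had a single member. A tdT+ barcode of collection 1 had 8 *H2-Eb1* UMIs with no *Cd74*, and another had 6 *Cd74* UMIs with no class II chain. *Cd74* was seen in 61 such barcodes, in 11 of them with a class II chain. *Tyrobp* was seen in 86, in 34 of them with at least 1 pan-leukocyte gene, and never above 2 UMIs.

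The spread of these UMIs over barcodes of different size was unlike between members. In the tdT- libraries outside the high-marker barcodes, *Tyrobp* was at 14.7 CPM (Poisson 95% interval 10.5 to 19.9) in barcodes of 500 to under 1000 UMIs, which are below the limit for kept barcodes, at 9.87 in those of 1000 to under 3000, at 2.68 in those of 3000 to under 10000 and at 1.13 (0.827 to 1.52) from 10000. *Bcl2a1b* went from 10.4 to 0.378 and *Srgn* from 13.3 to 1.76 CPM between the smallest and the largest barcodes. Small barcodes of the tdT- libraries thus held these 3 genes at higher levels than large ones. In the tdT+ libraries *Tyrobp* had 0 UMIs in every size class. *Srgn* was there at 3.61 CPM in the smallest and 0.685 in the largest barcodes.

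*H2-Ab1* was flatter, at 7.88 (4.94 to 11.9) and 5.21 (4.53 to 5.97) CPM in the smallest and the largest tdT- barcodes and at 4.18 (2.62 to 6.33) and 2.97 (2.48 to 3.53) in tdT+, with intervals that overlap in both sorts. *Cd74*, *H2-Aa* and *H2-Eb1* had 1 to 6 UMIs in the smallest class of each sort, too few to order.

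**Figure D3:**
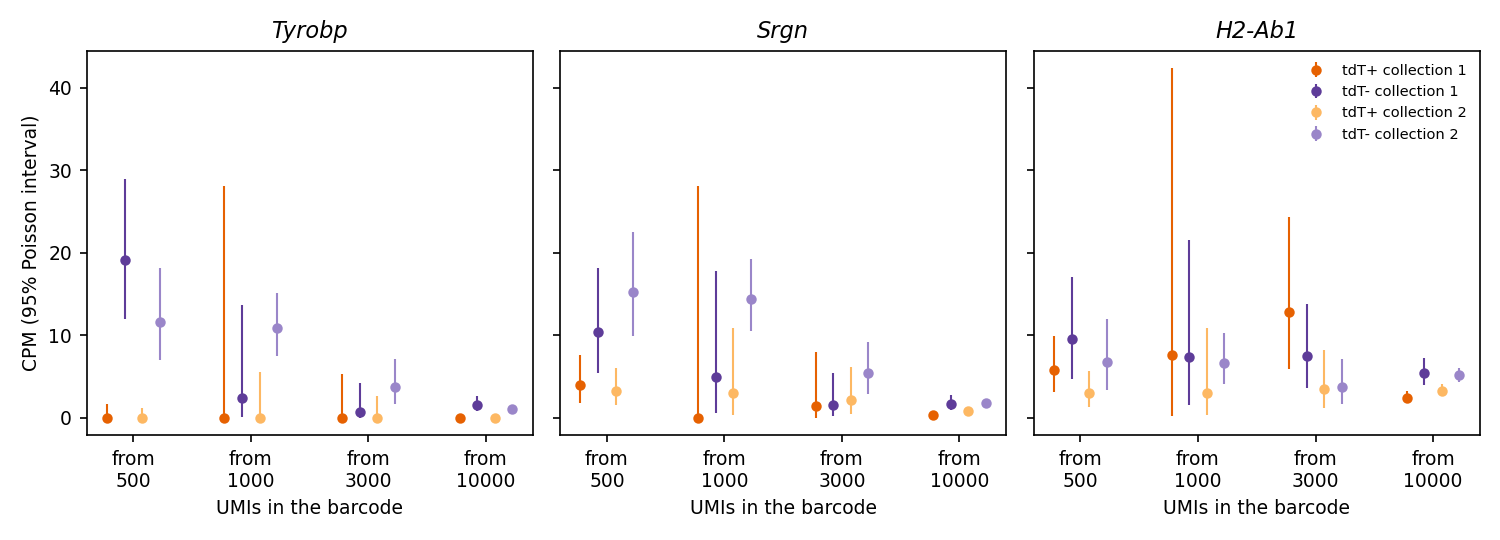
Levels (CPM) of *Tyrobp*, *Srgn* and *H2-Ab1* by the number of UMIs in the barcode, outside the high-marker barcodes, for each library (points, with 95% Poisson intervals). In the tdT- libraries *Tyrobp* is highest in barcodes under 1000 UMIs, where both libraries together gave 14.7 CPM, and *H2-Ab1* is flatter. In the tdT+ library of collection 1 *H2-Ab1* is at 12.8 CPM from 3000 and at 2.46 CPM from 10000 UMIs.

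*H2-Ab1* followed the cartilage share of the barcode. The barcodes of at least 10000 UMIs outside the high-marker ones were ranked within each library by their cartilage share and cut into 4 bins of nearly equal number. Its level in the lowest bin was 0.464, 0.470, 0.621 and 0.648 CPM in the tdT+ and tdT- libraries of collection 1 and then of collection 2, and in the highest bin it was 5.67, 10.3, 8.73 and 11.7. The mean was 0.551 ± 0.0976 (SD, n = 4 libraries) in the lowest and 9.08 ± 2.58 CPM in the highest bin. It was higher in 4 of 4 libraries, with a two-sided exact paired permutation p of 0.125, the smallest p that 4 pairs allow. The bins were compared for the members only. The share of all genes that rise in 4 of 4 libraries is therefore not known, and whether this rise is unusual was not tested.

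Summed over libraries, the bins in order held 12, 42, 63 and 220 *H2-Ab1* UMIs. The gene was found in 1.82% of barcodes in the lowest bin and in 19.9% in the highest, at a median of 27570 and 28671 UMIs per barcode. Cartilage genes made up 0.0933% of UMIs in the lowest bin and 2.56% in the highest, and mesenchyme genes 0.745 and 0.162%. Without barcodes of both sexes the levels were 0.598 and 8.99 CPM, and without the top Scrublet scores 0.606 and 9.45. No *H2-Ab1* UMI lay in barcodes A to F.

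No other member had its highest bin above the lowest in more than 2 of 4 libraries. *Srgn* went the other way, with 1.73 ± 0.586 in the lowest and 0.948 ± 0.671 CPM in the highest bin (SD, n = 4). Its level was lower in 4 of 4 libraries (exact paired permutation p = 0.125). In the tdT+ library of collection 2 the bins were nearly equal, at 1.09 and 1.06 CPM from 7 and 8 UMIs. The share of all genes that fall in this way was not computed either. *H2-Eb1*, the neighbouring beta chain, was at 0.409 ± 0.551 and 0.569 ± 0.499 CPM, *H2-Aa* at 0.0972 ± 0.194 and 0.384 ± 0.562, and *Cd74*, the partner of all class II chains, at 0.844 ± 0.463 and 0.550 ± 0.166, with the highest bin above the lowest in 2, 1 and 1 of 4 libraries. *Tyrobp* was at 0.312 ± 0.381 and 0.412 ± 0.559 and *Bcl2a1b* at 0.300 ± 0.444 and 0.226 ± 0.379. *Il1b* had too few UMIs to compare.

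**Figure D4:**
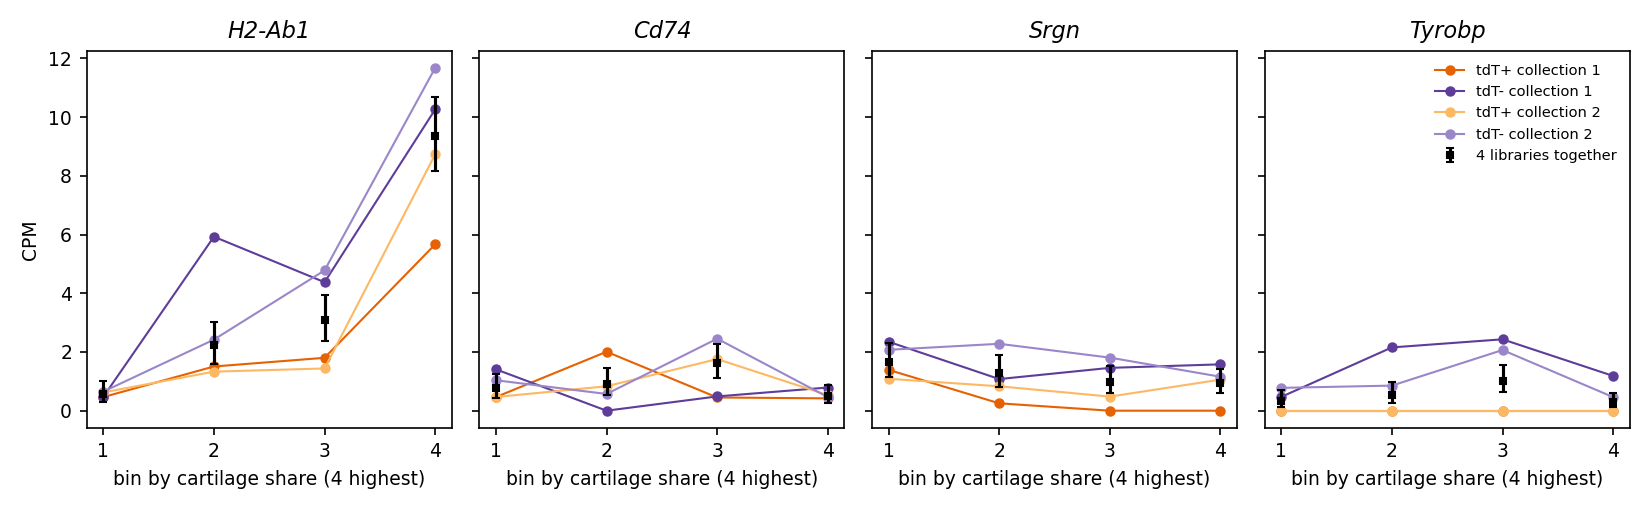
Levels (CPM) of *H2-Ab1*, *Cd74*, *Tyrobp* and *Srgn* in 4 bins of barcodes ranked by cartilage share within each library (1 lowest, 4 highest), for barcodes of at least 10000 UMIs outside the high-marker ones. Coloured lines are libraries and black squares all 4 together with 95% Poisson intervals. *H2-Ab1* is higher in the highest than in the lowest bin in all 4 libraries, with means of 9.08 against 0.551 CPM.

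Over all genes the 4 library sums of the sorts were compared with the quasi-likelihood test of edgeR and Benjamini-Hochberg adjustment, which called 309 of 17737 genes (1.74%), 183 of them (1.03%) higher in tdT-. Of the 8 members 7 passed the filter on low counts, *H2-Aa* not, and 3 were called, all higher in tdT-. These 3, *Bcl2a1b*, *Tyrobp* and *Il1b*, were near 0 in tdT+ and passed the filter through their tdT- counts. They could be called in that direction only. As the members were also chosen from these data, their adjusted p-values are a description. *Bcl2a1b* differed by 6.58 on the log2 scale (SE 0.55, adjusted p = 0.0164), higher in both tdT- libraries than in both tdT+ ones. Its 2 UMIs in tdT+ set a ratio of levels of 114 with an exact counting interval of 31.3 to 950.0. *Tyrobp* (adjusted p = 0.0280) had no UMI in tdT+, and against a floor of 3 counts over both tdT+ libraries its level was at least 153-fold higher in tdT-. *Il1b* differed by 7.04 (SE 1.17, adjusted p = 0.0422), with a ratio of 198 (35.1 to 7848) set by 1 UMI.

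Members that did not pass were *Srgn* (3.43, SE 0.64, adjusted p = 0.0565), *H2-Ab1* (1.05, SE 0.22, adjusted p = 0.0741), *Cd74* (2.95, SE 0.75, adjusted p = 0.116) and *H2-Eb1* (1.43, adjusted p = 0.314). With the collection as a block the count of genes was 529 (2.98%) and *Srgn* was called as well (3.42, SE 0.26, adjusted p = 0.00826, over a range of 5.4e-18 to 0.228 in 15 alternatives). Without the filter on low counts all 8 members were called, among 1848 genes (6.96%), and without the tdT- library of collection 1 there were 6 called (against 1.82% of all genes), all but *H2-Ab1* and *H2-Eb1*. Both tdT- libraries lay above both tdT+ libraries in 6 of the 7 members tested, against 4448 of 17737 genes (25.1%). For members chosen from these data that count is a description too.

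The calls rested largely on the 14 high-marker barcodes. With these left out, 213 of 17679 genes (1.20%) were called. Most tdT- member levels were bound to fall, as all 14 were tdT- and had been picked by leukocyte genes after the values were seen. Without them *Tyrobp* remained called (adjusted p = 0.0276, over 2.3e-38 to 0.0700 in 15 alternatives), at least 29.8-fold above the same floor. *Bcl2a1b* was then at 3.98 on the log2 scale (adjusted p = 0.0552, over 1.2e-20 to 0.0552 in 14 alternatives), *Srgn* at 1.83 and *Cd74* at 0.24, none of them called. *Il1b* no longer passed the filter. *H2-Ab1* stayed near its value (0.87, not called) and *H2-Eb1* was at -0.19, not called. Cartilage genes were themselves higher in tdT-, 8 of 12 called, among them *Col2a1* by 0.64, and their part in the *H2-Ab1* difference was not tested. Leaving out barcode G alone kept *Tyrobp*, *Il1b* and *Bcl2a1b* called, among 288 of 17735 genes (1.62%).

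Other genes of the same pathways were read from this fit, by lists set down with earlier results known. Over all genes tested the median difference was 0.0053 on the log2 scale. Of 13 MHC class II pathway genes tested 2 rose in tdT- and 0 fell (median 0.43), the endosomal proteases *Ctss* (1.29, adjusted p = 0.0478) and *Lgmn* (0.74, adjusted p = 0.0488). *Ciita*, the transactivator, differed by 1.00 (adjusted p = 0.332), *H2-DMa* by 0.47 and *H2-DMb1* by 1.27 (adjusted p = 0.0651). The transcripts of *H2-DMa* were mostly outside the high-marker barcodes, which held 44 of its 1516 UMIs, and for *Ciita* they held 3 of 76. Without those barcodes 0 of 13 were called.

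Among 15 MHC class I genes, which present peptides in nearly all cell types, 1 was called, the immunoproteasome subunit *Psmb8* (8.56, SE 0.93, adjusted p = 0.0251), with a median of 0.29. *Psmb8* had 0 UMIs in both tdT+ libraries and 25 and 62 in the tdT- ones, so it could be called in that direction only. The high-marker barcodes held 71 of its 87 UMIs, and without them 0 of 14 class I genes were called. *B2m*, the light chain, differed by 0.18, *H2-K1* by 0.86 and *H2-D1* by 1.26 (adjusted p = 0.0585). Of 5 genes tested in the list of ITAM adaptors, receptors and kinases 2 rose, *Fcer1g*, an adaptor akin to DAP12 (4.67, SE 0.64, adjusted p = 0.0280), and the kinase *Lyn* (0.66, SE 0.09, adjusted p = 0.0270), with a median of 2.44. Of the 88 *Trem2* UMIs, 79 were in high-marker barcodes. *Fcer1g* was still called without them (2.37, adjusted p = 0.0417).

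In the BCL2 family 1 of 12 rose, *Bcl2a1a*, the copy of *Bcl2a1b* (8.64, SE 0.90, adjusted p = 0.0226). *Bcl2a1a* had 0 UMIs in both tdT+ libraries and could be called in that direction only. The high-marker barcodes held 83 of its 93 UMIs, and without them 0 of 10 genes of this family were called. *Bcl2a1d* differed by 5.10 (adjusted p = 0.0638) and *Bcl2* by -0.21, and the median was 0.12. None of 8 genes of the IL-1 and inflammasome list was called (median 0.03), *Il1r1* differing by -0.33, although 22 of 26 *Casp1* UMIs and 21 of 31 *Nlrp3* UMIs were in high-marker barcodes. None of 6 interferon genes was called (median 0.16), *Ifngr1* differing by 0.32 and *Ifngr2* by -0.21. Of 10 genes of granule cargo only *Prtn3* could be tested (0.23, not called).

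The marker lists placed these values among the cell types of the sort. Of 11 pan-leukocyte genes tested 8 were higher in tdT- (median 4.50), among them *Ptprc* (5.39, adjusted p = 0.0280), *Coro1a* (1.76, adjusted p = 0.0216) and *Rac2* (7.90, adjusted p = 0.0164). In the tdT+ libraries *Ptprc* had 1 and 2 UMIs and *Rac2* had 1 and 0, so these could be called in that direction only. Without the high-marker barcodes 9 genes of the list were tested and only *Fcer1g* was called. Those barcodes had been picked by these same genes, so a drop was built in. Of 12 macrophage genes 1 was called, *Lyz2* (4.75, adjusted p = 0.0330), with a median of 3.19, and of 3 B cell genes 1, *Ighm* (5.00, adjusted p = 0.0406). *Ighm* likewise had only 0 and 1 UMIs in the tdT+ libraries. None was called of 5 monocyte and neutrophil, 4 dendritic, 2 T and NK cell, 2 mast and 3 megakaryocyte genes tested. *S100a8*, *S100a9* and *Ly6c2*, defining genes of neutrophils and monocytes, had 0 UMIs in all kept barcodes. Outside the leukocytes, 5 of 6 erythroid, 2 of 6 endothelial and 2 of 6 muscle genes were higher and 3 of 8 mesenchyme genes lower in tdT-.

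The second comparison asked whether p21 expression in cartilage moved the genes. Kept cells with a sex call were summed by library and condition into 8 pseudobulks, 4 per condition from 2 embryo pools each. WPRE, carried by the tdTomato and the p21 alleles, served with *Cdkn1a*, the p21 gene, as the check of the labels. In tdT+ cells WPRE can thus also come from tdTomato, which makes it an imperfect check there. WPRE was higher in p21 than in control cells of each library, at 713 against 496 and 407 against 92.8 CPM in the tdT+ and tdT- libraries of collection 1, and 1015 against 420 and 645 against 64.7 in those of collection 2. Its log2 difference of 1.79 (SE 0.35) had an adjusted p of 0.192. *Cdkn1a* did not separate the conditions, at 34.1 ± 8.66 CPM in p21 and 33.6 ± 15.4 in control cells (SD, n = 4 each), with a log2 difference of 0.13 (adjusted p = 0.964). By the paper's account most reads of the p21 transgene fall on WPRE, so *Cdkn1a* is a weak check. Whether the *Cdkn1a* UMIs include transcripts of the transgene was not tested.

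With the sort as a covariate, the quasi-likelihood test of edgeR called 3 of 15057 genes (0.0199%), and 1019 had an unadjusted p under 0.05. None of the 4 members tested was called. *Cd74* differed by 2.13 on the log2 scale (SE 0.68, adjusted p = 0.536), *Srgn* by 1.17 (adjusted p = 0.799), *H2-Ab1* by 0.18 (adjusted p = 0.971) and *Tyrobp* by -1.41 (adjusted p = 0.898). DESeq2 called 44 genes, no member among them. Without the filter on low counts edgeR called 430 of 26193 genes (1.64%), among them 7 of the 8 members, 6 higher in p21 cells, such as *Cd74* (2.13, adjusted p = 1.7e-07, against 0.183 to 1.00 in the other alternatives), and *Tyrobp* lower (adjusted p = 0.0319), with *H2-Ab1* at 0.19 and not called. For the interaction of condition and sort edgeR called 0 of 15540 genes (0%), with 577 at an unadjusted p under 0.05, and none of 6 members.

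Single pseudobulks set most of the means. *Cd74* was at 0.710, 1.80, 0.403 and 1.59 CPM in control cells of tdT+ and tdT- collection 1 and tdT+ and tdT- collection 2, and at 1.16, 0.798, 1.12 and 16.5 in p21 cells in the same order. The last value contains barcode G. *H2-Aa*, *H2-Eb1*, *Il1b* and *Bcl2a1b* had their highest value in the same pseudobulk, at 8.39, 5.06, 8.59 and 7.17 CPM, as did *Srgn* at 13.8. *Tyrobp* was at 0, 20.4, 0 and 0.869 CPM in control cells and at 0, 2.79, 0 and 4.56 in p21 cells, the 20.4 holding 3 high-marker barcodes (B, C and E). Control and p21 values overlapped for all 8 members.

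*H2-Ab1* was at 4.01 ± 2.26 CPM in control and 4.06 ± 2.55 in p21 cells (SD, n = 4 each), p = 0.971 by a two-sided exact permutation test. For the 8 members that p ranged from 0.143 (*H2-Eb1*, 0.512 ± 0.375 against 1.89 ± 2.12) to 0.971, where 4 against 4 allows 0.0286. The 4 values of a condition come from 2 embryo pools and span both sorts, so they are not independent. The permutation p-values of this paragraph therefore describe the spread between sums only, and that limit is too low for the design. With pools as the units, 2 against 2 would allow no p under 0.333. Of the 14 high-marker barcodes 4 were p21 cells (D, G, H and I), 3 were control cells (B, C and E) and 7 had no single sex. The share of barcodes with at least 3 pan-leukocyte genes was 1.48 ± 0.70% in p21 and 3.95 ± 2.57% in control cells (exact permutation p = 0.114). No gene of the pathway and marker lists was called in this comparison.

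**Figure D5:**
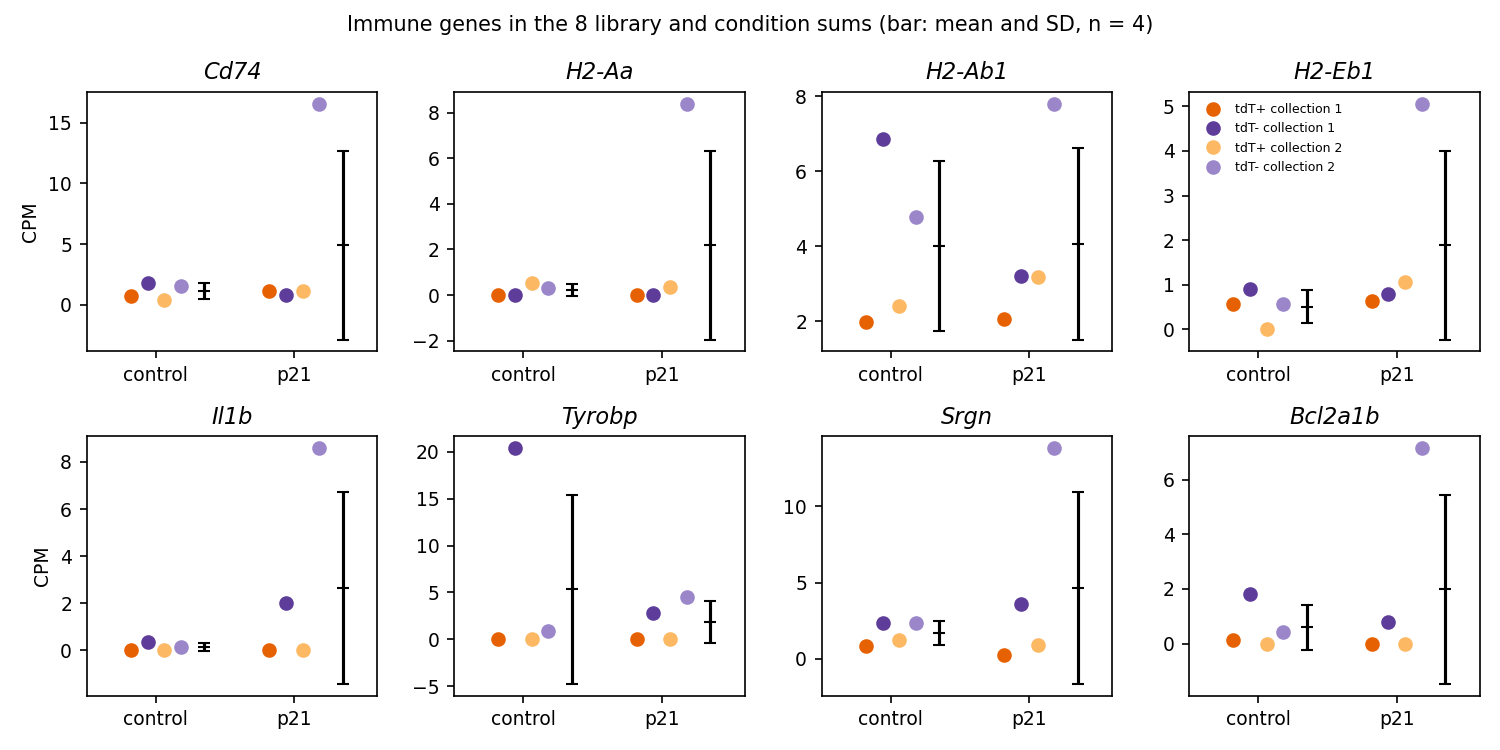
Levels (CPM) of the 8 immune genes in control and p21 cells of each library (points, coloured by library), with the mean and SD of 4 pseudobulks as bars. In 7 of the 8 panels the highest point is the p21 cells of the tdT- library of collection 2, which contain barcode G (*Cd74* 16.5 CPM), whereas *Tyrobp* is highest in the control cells of the tdT- library of collection 1 (20.4).

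The genes whose levels followed the summed members most closely over kept barcodes, by the mean over 4 libraries of Pearson's r of log-scaled values, were *Was* (0.147), *Spi1* (0.135), *Pmaip1* (0.129), *Ncf4* (0.126), *Ptprc* (0.126), *Acoxl* (0.122), *Pld4* (0.120), *Mir142hg* (0.118), *Csf2rb* (0.117) and *Cyth4* (0.117). The points of a library share depth and free RNA, and values this weak in sparse counts are a description. Of these 10 genes 8 had over 50% of their UMIs in the high-marker barcodes, the exceptions being *Pmaip1* (16.8%) and *Acoxl* (3.74%). Most member UMIs lie in those barcodes, and *Spi1* and *Ptprc* helped to define them, so this overlap was largely built in. The 2 exceptions had their highest r in the tdT+ libraries of collections 1 and 2 (*Pmaip1* 0.225 and 0.192, *Acoxl* 0.276 and 0.137). The others had theirs in the tdT- library of collection 1. Among 17068 genes with at least 50 UMIs in kept barcodes 77 passed 50%, and 5 genes had over 50% in barcode G alone, the members *H2-Aa*, *Il1b*, *Cd74* and *H2-Eb1* and the *Bcl2a1b* copy *Bcl2a1d*.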

How the data were processed

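Droplet libraries (10x Genomics 3′ kit) of sorted E14.5 hindlimb cells were aligned and counted by the authors with Cell Ranger 7.2.0 against GRCm38 with added *tdt*, CreERT2 and WPRE sequences, and the deposited files hold unscaled UMI counts for each barcode and gene. The methods also describe removal of free RNA and of doublets. The deposited counts are whole numbers and include barcodes from 500 UMIs, so those steps are not visible in them. Whether introns were counted is not given in the sources used here.

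Counts were read with scanpy 1.11.5 in Python 3.11.15, with scipy 1.17.1 for exact tests. Kept barcodes had 1000 UMIs or more, 500 genes or more and no more than 10% of UMIs from mitochondrial genes. Sex needed 2 UMIs of *Xist* or 4 Y-linked genes, 80% of them agreeing, and barcodes with at least 2 UMIs from each sex were called both sexes and were left out of the condition sums only. Scrublet scored barcodes from 3000 UMIs, and its top 5% per library were left out as an alternative. Library sums (2 against 2) and library by condition sums (4 against 4, sort as covariate) were tested in R 4.3.3 with edgeR 4.0.16 (filterByExpr, TMM, glmQLFit, glmQLFTest, Benjamini-Hochberg over all genes tested, threshold 0.05), with DESeq2 1.42.0 as an alternative. Single values were compared by two-sided exact permutation tests, shares have exact binomial and levels exact Poisson intervals of 95%, and a share or level of 0 was limited by 3 counts. The planned fit within barcodes of at least 3 pan-leukocyte genes was not run, since p21 had fewer than 3 sums of at least 5 such barcodes. On simulated counts with 200 genes changed, the test recovered 78% of 2-fold and 92% of 4-fold changes between sorts (17737 genes), 93% and 100% between conditions (15057 genes) and 18% and 79% in the interaction (15540 genes). The simulation gave all genes the same spread between sums. Its rates therefore do not apply to genes whose UMIs lie in a few barcodes, such as most members.

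The members and all lists, markers and alternatives were chosen with earlier results of these data known. The rule for named genes took the 8 members, the called genes and the first 3 genes of each pathway list, the 10 genes most like the members, and *Cdkn1a* and WPRE. Non-immune marker lists are given by counts, and gene list values of single barcodes were picked after they were seen. A collection number marks libraries from the same embryos, so it pairs them. Deviations of the tdT+ and tdT- libraries of a collection from their means correlated at r = 0.178 over 17737 genes, which are not independent replicates. The 2 libraries of a sort came from different embryos, and the sums of a pool's tdT+ and tdT- cells share embryos, so p-values measure the spread between these sums only. Promoter sequences came from the RefSeq table on GRCm38.p6.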

Additional observations from a re-analysis of the deposited data

Results flagged for a closer look

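In 5 of 22 groups of 4 pseudobulks tested, 1 value lay far from the other 3 by Dixon's test. The members were chosen for their high level in a few barcodes, and the groups share pseudobulks. No chance rate therefore applies, and the flags are a description. Among p21 cells these were the tdT- cells of collection 2, at 16.5 CPM (UMIs per 1000000) for *Cd74* (next highest 1.16), 8.39 for *H2-Aa* (0.353), 5.06 for *H2-Eb1* (1.06) and 7.17 for *Bcl2a1b* (0.798). That pseudobulk contains barcode G, with 312 of its 337 *Cd74* UMIs and 161 of its 171 *H2-Aa* UMIs. Among control cells it was the tdT- cells of collection 1, at 20.4 CPM for *Tyrobp* (next highest 0.869), which contain the high-marker barcodes B, C and E.

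Barcodes of 500 to under 1000 UMIs, which enter no comparison between groups, held UMIs of the 8 genes above the limit that a count of 0 allows in every library, at 11.2 and 8.26 CPM in the tdT+ libraries of collections 1 and 2 (limits 1.34 and 0.991) and at 59.9 and 44.5 CPM in the tdT- libraries (limits 2.60 and 1.83).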

How the results depend on the processing

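Between the sorts, 309 genes were called, against 641 with DESeq2, 1848 without a filter, 529 with the collection as a replicate block and 32 to 413 with 1 library left out, the lowest without the tdT+ library of collection 1. Between the conditions 3 genes were called, against 44 with DESeq2, 430 without a filter, 5 without the top Scrublet scores, 0 each with the stricter sex rule, the library as a replicate block, no sort in the model and the fractions of a pool summed, and 0 to 5 with 1 pseudobulk left out. The p21 and control cells of a library were run together, and the main fit did not take the library as pairing them. Their deviations correlated at r = -0.0919 in tdT+ and 0.0486 in tdT-. With 2 libraries per sort this is a single value per sort, which cannot show that pairing is absent. Without a filter all 8 members were called between sorts and 7 of 8 between conditions (all but *H2-Ab1*). Without the tdT- library of collection 1 there were 6 called between sorts, and the other alternatives called 1 to 4 between sorts and 0 between conditions.

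The share of member UMIs in leukocyte-marker barcodes, 69.3%, was 74.0% with 2 markers, 67.0% with 5, 66.5% with 8, 63.7% with the rule of 0.1% of UMIs, 73.2% from 3000 UMIs, 64.6% in all barcodes and 44.5 to 73.5% with 1 library left out, the lowest without the tdT- library of collection 2, which holds barcode G. The cartilage share of those barcodes, 1.56%, was 1.54% with 2 markers, 0.632% with 5, 0.609% with 8, 0.114% with the rule of 0.1%, 1.67% without barcodes of both sexes, 1.58% without the top Scrublet scores and 1.495 to 1.61% with 1 library left out.

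Some directions of members not called in the filtered fits of all libraries turned. *H2-Eb1* between sorts was at -0.19 on the log2 scale without the high-marker barcodes, -0.19 without barcode G and -0.21 to 1.99 with 1 library left out, the lowest without the tdT- library of collection 2. Between conditions *H2-Ab1* was at -0.0614 without the high-marker barcodes, -0.0613 without barcode G and -0.10 to 0.36 with 1 pseudobulk left out, *Srgn* at -0.58 without the high-marker barcodes and -0.13 to 1.53 with 1 pseudobulk left out (both lowest without the p21 tdT- cells of collection 2), and *Tyrobp* at -2.36 to 2.11, the highest without the control tdT- cells of collection 1. In the interaction *Cd74* was at -1.65 without barcode G. *Il1b* lost its call in 5 of 12 settings and *Tyrobp* in 1 of 15, without the tdT+ library of collection 1 (adjusted p = 0.0700). The cause was not tested.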
